A study of Mus musculus with 32 samples.

Results

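The mitochondrial ribosome is built from proteins encoded in the nucleus and RNA encoded in the mitochondrial genome, and the genes for its proteins carry names that start with Mrpl (large subunit) or Mrps (small subunit). The genes described here are the protein-coding rows of the deposited count table whose name is Mrpl or Mrps followed by a number. There were 78 such genes among 30644 rows, 49 named Mrpl and 29 named Mrps. They lay on 17 chromosomes. They were followed in multipotent progenitors (MPP) of C57BL/6 bone marrow, sorted into the subsets MPP1 to MPP4. The mice were wild type or carried the Cxcr4 allele 1013 in 1 copy (+/1013) or 2 copies (1013/1013). This allele encodes a receptor that lacks the end of its intracellular tail, a kind of change that causes WHIM syndrome in people. Each subset had 3 wild type, 3 +/1013 and 2 1013/1013 libraries, which makes 32 libraries in 12 groups. The series title names CXCR4, the fate of progenitors and mitochondrial metabolism as its subject.

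Mitochondrial ribosomes translate the few messenger RNAs of the mitochondrial genome, all of which encode subunits of the respiratory chain or of ATP synthase. Their small subunit decodes the message and their large subunit forms the peptide bond. Many of their proteins have counterparts in bacterial ribosomes and others are found in mitochondrial ribosomes only. In mouse marrow, stem cells and the earliest progenitors are known for low rates of protein synthesis, and respiration rises as progenitors become committed. Some genes depart from their name. Mrps30 and Mrps18a encode proteins that sit in the large subunit, and the product of Mrps36 serves the 2-oxoglutarate dehydrogenase complex.

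Each library was made from a pool of 3000 cells, with cDNA amplified from 350 to 1000 pg of RNA by 12 cycles of PCR. The labels do not say whether libraries of a group came from separate animals, so the p-values below measure the spread between these libraries. Library totals ran from 13016038 to 37050983 counts. Sorting markers followed the subset labels in wild type. Flt3, the receptor that defines MPP4, had 335 to 561 CPM there and 12.8 to 23.2 CPM in MPP1, and Slamf1 (CD150) was at 0 in every wild type library of MPP3 and MPP4. CPM are counts scaled to a common library size, here with TMM factors. Of the 8 libraries whose number in the titles is a multiple of 3, 7 carried a summed level of 8 neutrophil genes from 886 to 3880 CPM. The last of them, MPP4 1013/1013 2, had 33.8 CPM, and the other 24 libraries had 0.579 to 70.3 CPM. No MPP1 library is among those 8, and results are also given without them. Without them, MPP2 and MPP4 keep 1 library each in 1013/1013. The libraries are bulk RNA, so fewer cells of a type and less RNA per cell cannot be told apart.

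Promoters of 4 members are shown first, because the letters bound by known regulators of mitochondrial genes were more frequent in the windows of the members than in all windows. The table of RefSeq promoter windows (build GRCm38.p6, 250 bases before to 50 after the start) held 75 windows for 69 of the genes and 32851 windows in all. All windows together covered 27025 genes and were not limited to protein-coding genes, while every member is protein-coding. The letters CCGGAAG, the core bound by ETS factors such as GABP, were on either strand in 34.7% of the windows of the members and in 8.86% of all windows. The letters AAGATGGCG, bound by YY1, were in 10.7% and 1.4%. The palindrome bound by NRF1, printed in capitals in the Mrpl32 line, was in 4.0% (3 windows) and 0.971%, and TATAAA was in 6.67% and 13.6%. None of these motifs contains another. GABP, YY1 and NRF1 are known regulators of nuclear genes for mitochondrial proteins. The stretches below are the 100 bases just before the start of 4 members, with the motif in capitals. Mrps22 and Mrpl43 show the ETS letters close to the start, with those of Mrpl43 at 56 to 50 and again at 12 to 6 bases before it. Mrpl36 shows the YY1 letters in reverse complement at 31 to 23 bases before the start, and Mrpl32 shows the NRF1 palindrome.
Mrps22, chr9:98601680-98601779, minus strand: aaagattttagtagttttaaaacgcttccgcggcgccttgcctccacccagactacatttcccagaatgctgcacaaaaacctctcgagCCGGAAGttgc
Mrpl43, chr19:45006443-45006542, minus strand: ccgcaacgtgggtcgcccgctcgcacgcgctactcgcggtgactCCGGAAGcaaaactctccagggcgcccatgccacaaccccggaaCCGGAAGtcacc
Mrpl36, chr13:73330909-73331008, plus strand: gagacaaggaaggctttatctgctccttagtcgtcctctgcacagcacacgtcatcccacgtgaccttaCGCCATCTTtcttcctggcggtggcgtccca
Mrpl32, chr13:14613038-14613137, minus strand: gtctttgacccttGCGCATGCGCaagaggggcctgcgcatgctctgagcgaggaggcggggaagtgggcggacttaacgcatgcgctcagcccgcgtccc
These matches describe letters in a window and were not tested for binding. A partner was counted where another protein-coding gene on the opposite strand started within 1000 bases upstream of the gene's own start. Opposite-strand starts lying downstream, inside the gene, were not counted. Of the 78 members, 18 (23.1%) had such a partner, against 6.79% of the 21951 protein-coding genes of the annotation.

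Levels between genes were compared as mean CPM per kilobase of the deposited transcript length. That length is the median over the transcripts of a gene, 506 bases for Mrpl28 and 438 for Mrpl18. Which transcripts were expressed was not measured, so the order of genes by level depends on this median. Transcripts of 77 members passed the filter on low counts, and their level per kilobase ran from 3.62 to 792 with a median of 118. The highest was Mrpl28, a large subunit protein with a bacterial counterpart, at 792 CPM per kilobase, followed by Mrpl18 (575), which binds 5S RNA in bacteria, Mrpl42 (396), Mrps14 (370) and Mrps17 (341). The lowest past the filter were Mrps34 (3.62), Mrps18b (11.2), Mrpl33 (11.9), Mrps31 (21) and Mrps22 (26.7). The members of the large subunit had a median of 136 CPM per kilobase where a bacterial counterpart exists and 114 where none does. The medians for the small subunit were 98 and 56.7. The levels of all these roles overlapped.

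**Figure D1:**
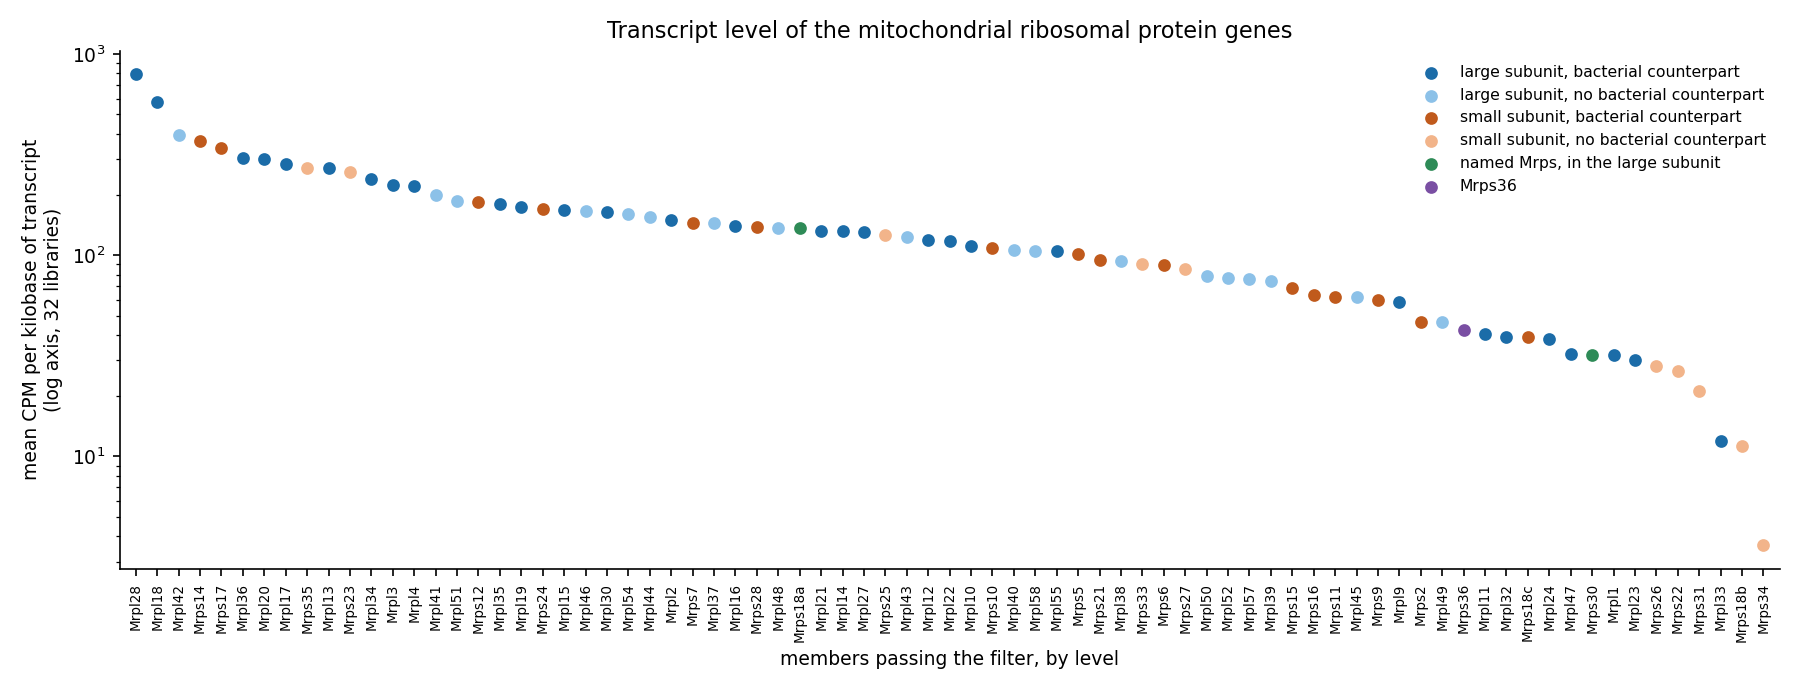
Mean level of each of the 77 members that passed the filter, in CPM per kilobase on a log axis (mean of 32 libraries). The length is the deposited median over the transcripts of a gene. Members are ordered from highest to lowest and coloured by the place of the protein in the ribosome. Levels run from 792 for Mrpl28 to 3.62 for Mrps34, and all roles with more than 2 members span much of the middle of the range.

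The member that failed the filter was Mrpl53, with 9 counts over 32 libraries. The annotation places 88% of the exon bases of Mrpl53 under other genes on the same strand (Ccdc142os and Gm42688). The part of this sharing in its low count was not tested. Mrps34, the lowest member past the filter, shares 77.8% of its exon bases with Mapk8ip3 and Nme3. Sharing did not always go with a low level, since Mrps25 shares 69.8% with Nr2c2 on the opposite strand and had 126 CPM per kilobase. The strand setting of the counting is not given in the sources used here, so it is not known whether reads of Mrps25 and Nr2c2 were separated. The other 75 members share less than 50% of their exon bases, and 45 members share none.

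The members varied together across libraries. The Pearson correlation of log2 CPM of each member with the mean of the other members over the 32 libraries had a median of 0.83, and 68 members were above 0.5. These points share libraries and scaling, so the values are descriptions. The share of all genes above 0.5 with this mean is not given. The count therefore does not set members apart from other genes. The highest correlations among the members were those of Mrpl14, Mrpl18, Mrpl20 and Mrpl51 at 0.95. A few members did not follow the rest, with the lowest correlations for Mrps5 (-0.19), Mrpl49 (-0.13), Mrpl45 (-0.01), Mrps15 (0.11) and Mrps2 (0.14). Mrpl45 encodes a protein near the exit of the nascent chain tunnel, related to the import protein TIM44. The spread over libraries, as SD of log2 CPM, was largest for Mrps18c (1.02), Mrpl44 (0.63), Mrpl14 (0.62), Mrpl51 (0.59) and Mrps14 (0.58). It was smallest for Mrpl19 (0.22), Mrpl4 (0.23), Mrps9 (0.24), Mrpl3 (0.26), Mrpl40 (0.27) and Mrpl48 (0.27). Outside the members, the genes of highest correlation with their mean over the same 32 libraries were Atp5g3 (0.977), Nop10 (0.974), Dpy30 (0.973), Banf1 (0.97) and Psmb3 (0.969).

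The summed level of the 78 genes took 0.59% to 1.3% of the counts of a library. In MPP1 it was 8309, 6794 and 6571 CPM in wild type, 10324, 7211 and 6367 in +/1013, and 5480 and 5857 in 1013/1013. In MPP2 it was 7571, 8809 and 9244 CPM in wild type, 9762, 8605 and 13435 in +/1013, and 14921 and 10834 in 1013/1013. The 1013/1013 libraries were thus below every wild type library in MPP1 and above every one in MPP2. In MPP3 the sum was 9201, 9326 and 8374 CPM in wild type, 9216, 7877 and 9844 in +/1013, and 8066 and 13561 in 1013/1013. In MPP4 it was 7756, 8624 and 7288 CPM in wild type, 10568, 7727 and 8591 in +/1013, and 12247 and 13481 in 1013/1013. Genotypes overlapped in MPP3, and the lowest sums there (7877 and 8066 CPM) were in the libraries with summed B cell markers of 14800 and 17700 CPM, against 566 to 3930 CPM in the other 6 libraries of MPP3. Most of that sum was Ighm, Pax5 was at 0 in all 8, and their part in the summed level of the members was not tested. In MPP4 both 1013/1013 libraries were above all 6 others. The mean in MPP4 was 7889 ± 678 CPM in wild type (SD, n = 3) and 12864 ± 873 in 1013/1013 (n = 2). The sums of Mrpl and of Mrps genes followed each other across the 32 libraries with a correlation of 0.99.

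**Figure D2:**
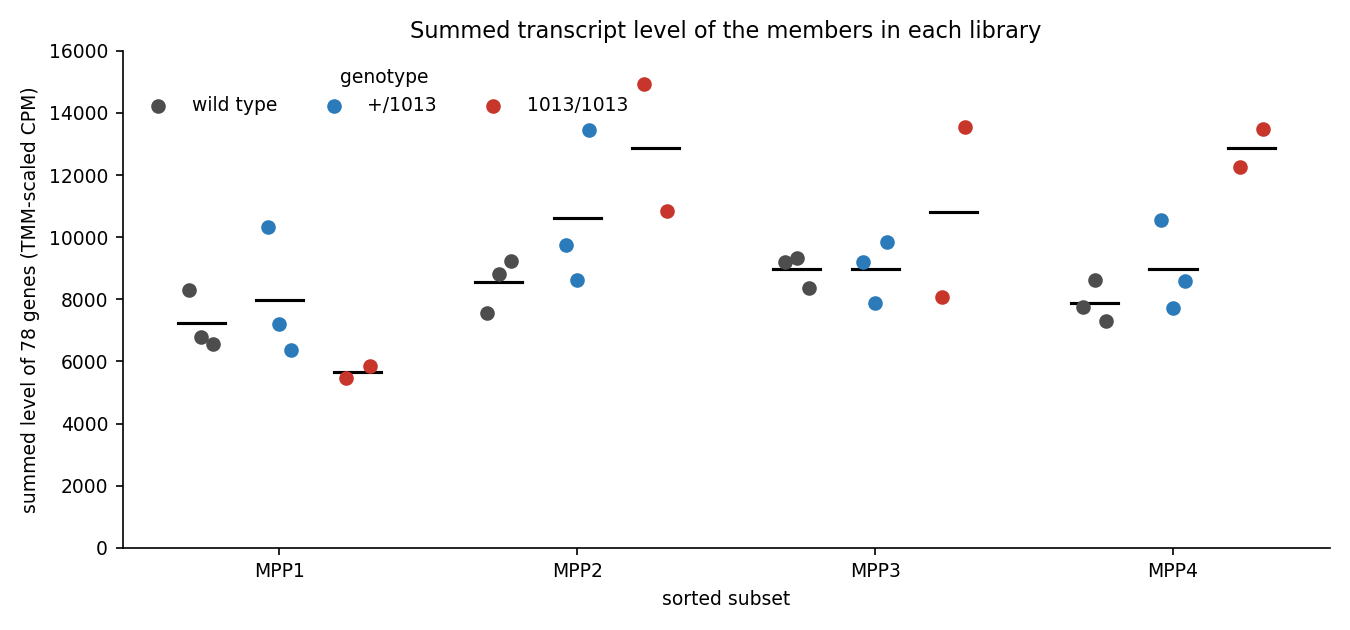
Summed TMM-scaled CPM of the 78 genes in each of the 32 libraries (points), by subset and genotype, with the group mean as a line. The 1013/1013 libraries are the lowest of MPP1 (5480 and 5857) and the highest of MPP4 (12247 and 13481), and in MPP3 they lie at 8066 and 13561 on either side of wild type.

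The first comparison asked how these genes differ between the subsets, as the mean over the 3 genotypes. As this mean, members were higher in MPP2, MPP3 and MPP4 than in MPP1, and no member was lower past the threshold in any of these comparisons. The mean weights each genotype equally, and within wild type or +/1013 alone edgeR called 0 members in each subset. Of the members called for the mean, 27 of 40 in MPP2 and 28 of 28 in MPP4 were also called within 1013/1013. In MPP3, edgeR called 0 within 1013/1013 too. In MPP2, 40 of 77 members were higher (5.01% of all 18676 genes tested were higher and 1.72% lower), with a median log2 difference of 0.59 over the members and of -0.16 over all genes tested. In MPP3, 11 members were higher (2.36% of all genes were higher and 0.75% lower), with medians of 0.50 and -0.08. DESeq2 called 30 members in MPP3 and limma-voom 26, against 47 and 43 in MPP2 and 33 and 35 in MPP4. Here and below, counts from these tools are given without the share of all genes that they called. The same holds for edgeR counts from refits with libraries left out, added terms or other settings. Such counts therefore do not show whether members were called more often than other genes. In MPP4, 28 members were higher (7.59% of all genes were higher and 7.12% lower), with medians of 0.50 and -0.15. Calls are from edgeR's quasi-likelihood test with Benjamini-Hochberg adjustment over all genes tested and a threshold of 0.05, and every adjusted p below is from that test unless another tool is named. There were 8 members called in each of the subsets, Mrpl15, Mrpl18, Mrpl36, Mrpl37, Mrpl41, Mrpl42, Mrpl43 and Mrpl46, while 45 were called in at least 1 and 32 in none. These comparisons share the MPP1 libraries, so their calls are not independent.

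Calls came from every role. Among large subunit members with a bacterial counterpart, 15 of 30 were higher in MPP2, 6 in MPP3 and 11 in MPP4. Mrpl18 had 79.7 to 278 CPM in the 8 MPP1 libraries with a median of 149.5 CPM, and 169 to 441 CPM with a median of 249.5 CPM in the 8 MPP2 libraries. Its log2 difference was 0.98 (SE 0.18, adjusted p = 0.00346) in MPP2, 0.99 (SE 0.18, adjusted p = 0.00266) in MPP3 and 0.89 (SE 0.18, adjusted p = 0.00165) in MPP4. Only the single highest MPP1 library, +/1013 1 at 278 CPM, was above the median of MPP2. Mrpl36, the counterpart of a very small bacterial protein, was higher by 0.79 (SE 0.15, adjusted p = 0.00448) in MPP3 and by 0.86 (SE 0.15, adjusted p = 0.000482) in MPP4 on the log2 scale. Other members of this role among the 10 largest differences of a subset were Mrpl14 (0.97) and Mrpl20 (0.90) in MPP2, Mrpl1 (0.78), Mrpl34 (0.72), Mrpl55 (0.67) and Mrpl15 (0.53) in MPP3, and Mrpl22 (0.85), Mrpl32 (0.83) and Mrpl1 (0.70) in MPP4.

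Of the 18 tested large subunit members found in mitochondria only, 10 were higher in MPP2, 5 in MPP3 and 9 in MPP4. Mrpl41 was higher by 1.02 (SE 0.19, adjusted p = 0.00419) in MPP2 and by 0.93 (SE 0.19, adjusted p = 0.0102) in MPP3. Mrpl44, whose protein has a fold related to RNase III, was higher by 0.95 (SE 0.23, adjusted p = 0.00807) in MPP4. Mrpl46 was higher by 0.81 (SE 0.17, adjusted p = 0.0125) in MPP3 and 0.79 (SE 0.17, adjusted p = 0.00393) in MPP4. The others named by size of difference were Mrpl57 (0.92) and Mrpl51 (0.90) in MPP2 and Mrpl43 (0.71) and Mrpl42 (0.58) in MPP3. Their calls in this group did not include Mrpl49 or Mrpl45, which also did not follow the other members across libraries.

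In the small subunit, 8 of 16 members with a bacterial counterpart were higher in MPP2, 0 in MPP3 and 2 (Mrps14 and Mrps17) in MPP4. Of the 10 found in mitochondria only, 5 were higher in MPP2, 0 in MPP3 and 4 in MPP4. The absence of Mrps calls in MPP3 does not show that these genes behaved differently from Mrpl genes, because the median log2 differences in MPP3 were 0.51 for Mrps and 0.49 for Mrpl. Mrps22 is a mitochondria-specific protein of the small subunit. It had 86.3, 32.9 and 42.3 CPM in wild type MPP1, 34.9, 34.9 and 28.4 in +/1013 and 32.1 and 22.1 in 1013/1013, so the library MPP1 wild type 1 stood apart. In MPP2 it had 81.5, 81.4 and 75.4 CPM in wild type, 72.2, 51.1 and 92.7 in +/1013 and 78.4 and 70.4 in 1013/1013. All MPP2 libraries were above 7 of the 8 MPP1 libraries. Its log2 difference was 1.05 (SE 0.19, adjusted p = 0.00358) in MPP2 and 0.95 (SE 0.19, adjusted p = 0.0018) in MPP4. Mrps17 was higher by 0.91 (SE 0.17, adjusted p = 0.00416) and Mrps14 by 0.96 (SE 0.25, adjusted p = 0.0231) in MPP2. Mrps36 was higher by 0.92 in MPP2 and 0.80 in MPP4, and Mrps30 passed the threshold in both.

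The number of calls moved with single libraries, and the shares of all genes called in these refits are not given. Without MPP1 1013/1013 1 the counts were 16, 2 and 17 in MPP2, MPP3 and MPP4, and without MPP1 +/1013 1 they were 29 in MPP3 and 45 in MPP4. In MPP2 the count was also below 27 without MPP1 wild type 2 (26), MPP1 +/1013 3 (26), MPP1 1013/1013 2 (19), MPP2 +/1013 3 (24) or MPP2 1013/1013 1 (17). In MPP3 it fell to 2 without MPP3 1013/1013 2 and rose to 23 without MPP3 1013/1013 1, and it was 5 to 7 without MPP1 wild type 2 or 3, MPP1 +/1013 2 or 3, MPP1 1013/1013 2, MPP3 wild type 1 or 2, or MPP3 +/1013 3. Without the 8 libraries that include those with neutrophil transcripts, 29, 5 and 16 members were higher. Among MPP2, MPP3 and MPP4, edgeR called 0 members in each pair. For MPP4 against MPP2 (2.01% of all genes called higher), 2 members were higher and 7 lower at an unadjusted p under 0.05 (7.65% and 8.11% of all genes). There DESeq2 called 5 and limma-voom 2, with medians of -0.09 over the members and -0.03 over all genes. For MPP3 against MPP2 (0.509% of all genes called higher), 1 was higher and 3 lower at that level (4.97% of all genes were lower), while DESeq2 called 1 and limma-voom 0. For MPP4 against MPP3 (0.294% of all genes called higher), 2 were higher at that level (4.48% of all genes) and neither of these tools called any. The members of lowest p were Mrps31 (0.61 in MPP3 and 0.59 in MPP4 against MPP2, adjusted p = 0.192 and 0.107), Mrps25 (-0.44 in MPP4 against MPP2, adjusted p = 0.0863) and Mrpl32 (0.50 in MPP4 against MPP3, adjusted p = 0.338).

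**Figure D3:**
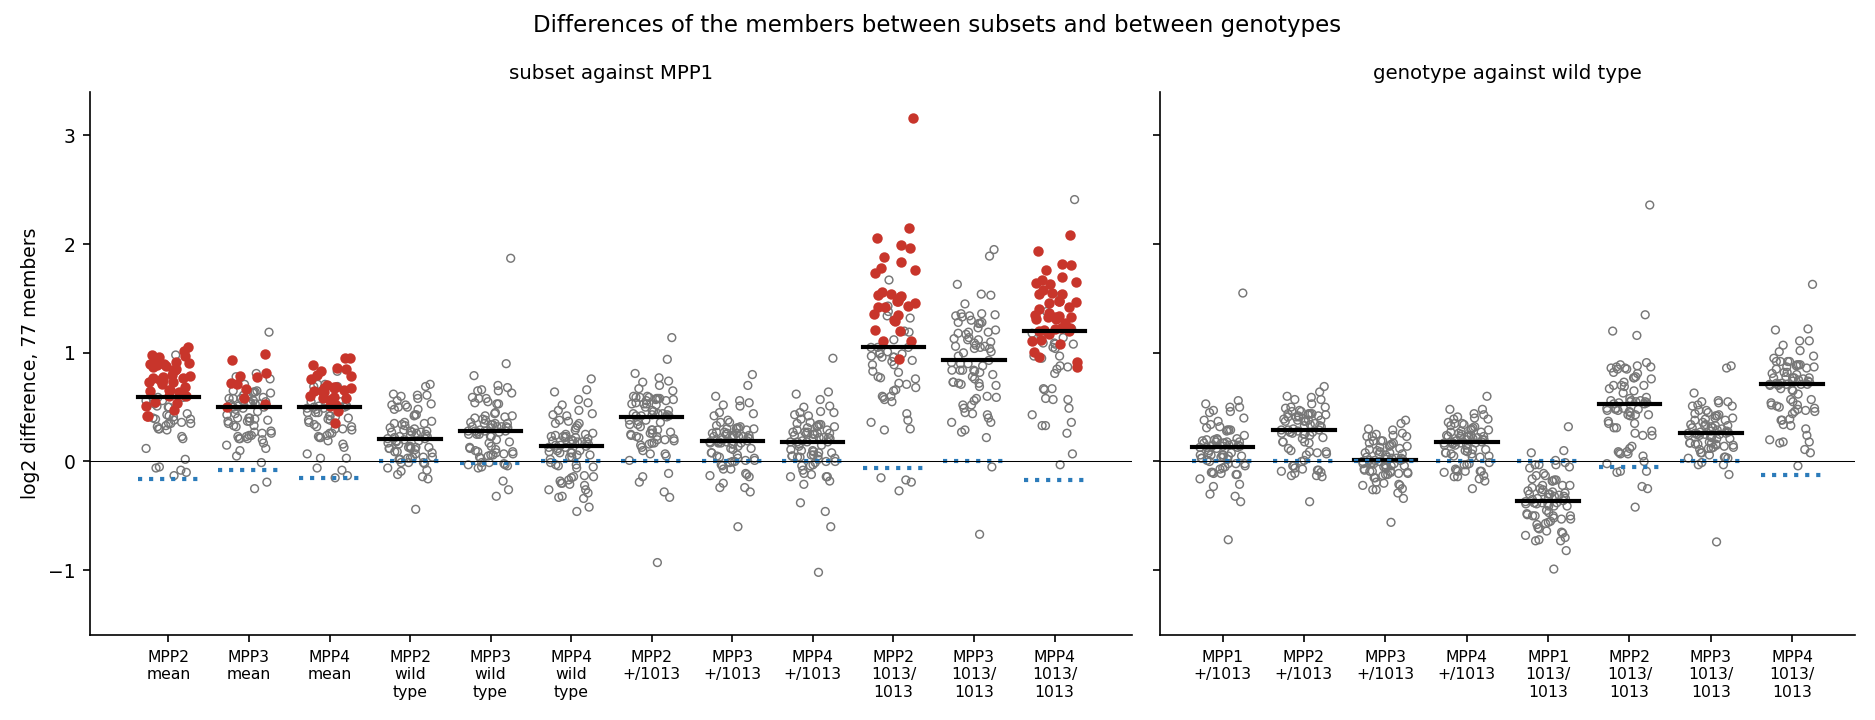
Log2 difference of each of the 77 members (points) for each subset against MPP1 (left, as the mean over genotypes and within each genotype) and for each mutant genotype against wild type within a subset (right). Filled red points have an adjusted p under 0.05 in edgeR, black lines are medians over the members and blue dotted lines medians over all genes tested. In 1013/1013 the members sit at medians of 1.05, 0.93 and 1.2 above MPP1, against 0.21, 0.28 and 0.14 in wild type.

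The subsets were also compared within each genotype. Here and below, some medians and counts of positive members stand without the value for all genes. Those do not show that members differed from other genes. In wild type alone edgeR called 0 members in MPP2, MPP3 and MPP4 against MPP1, and so did DESeq2 and limma-voom. Of all genes, 0.0964% were called higher by edgeR in MPP3 and 0.45% in MPP4. The members higher at an unadjusted p under 0.05 were 4 in MPP2 (2.31% of all genes), 9 in MPP3 (3.92%) and 0 in MPP4. The medians over the members were 0.21, 0.28 and 0.14, with 66, 66 and 53 of 77 positive. Leaving out single libraries gave 0.12 to 0.35, 0.17 to 0.42 and 0.03 to 0.25, with the lowest without MPP1 wild type 3 in each. Every wild type library of the subset was above every one of MPP1 for 15, 20 and 7 members (4.02%, 7.23% and 8.53% of all genes). The members of lowest p in wild type were Mrpl19 (0.48, SE 0.19, adjusted p = 0.931) in MPP2, Mrpl46 (0.90, SE 0.28, adjusted p = 0.398) in MPP3 and Mrpl37 (0.44, SE 0.22, adjusted p = 0.577) in MPP4.

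The same comparisons within the mutant genotypes were chosen after the values of the others were seen. In +/1013 edgeR called 0 members in each subset (0.00535%, 0.0803% and 0.493% of all genes were called higher in MPP2, MPP3 and MPP4), with medians of 0.41, 0.19 and 0.18 in MPP2, MPP3 and MPP4. Leaving out single libraries gave 0.17 to 0.61, 0.03 to 0.40 and 0.06 to 0.40, with the highest without MPP1 +/1013 1, and the lowest without MPP2 +/1013 3 in MPP2 and without MPP1 +/1013 3 in MPP3 and MPP4 (in MPP4 also without MPP4 +/1013 1). At an unadjusted p under 0.05, 17, 3 and 2 members were higher there (3.98%, 3.22% and 4.75% of all genes), and every library was above MPP1 for 11, 6 and 6 (3.79%, 5.09% and 7.56%). DESeq2 called 1, 0 and 1, and limma-voom called none. Mrps22 had the lowest p in all 3, with log2 differences of 1.14, 0.80 and 0.95 (adjusted p = 0.665, 0.81 and 0.248). In 1013/1013, 30 of 77 members were higher in MPP2 (3.07% of all genes) with a median of 1.05, and 43 were higher in MPP4 (5.12% of all genes) with a median of 1.2. Every 1013/1013 library of MPP2 was above both of MPP1 for 71 members (20.2% of all genes), and the same held in MPP4 for 74 (22.4% of all genes). In MPP3 the libraries separated for 70 (20.3% of all genes), but the count was 0 with edgeR (0.0107% of all genes), with 54 members higher at an unadjusted p under 0.05 (7.14% of all genes), 17 called by DESeq2, 2 by limma-voom, and a median of 0.93. The lowest p there belonged to Mrpl18 (1.89), Mrpl36 (1.34), Mrpl41 (1.63), Mrpl43 (1.18) and Mrpl42 (1.17), with adjusted p from 0.109 to 0.189.

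Several members differed by about 4-fold between subsets of 1013/1013 mice. Mrpl18 had 79.7 and 113 CPM in MPP1, 441 and 327 in MPP2 and 351 and 388 in MPP4. Its log2 difference from MPP1 was 1.99 (SE 0.36, adjusted p = 0.0102) in MPP2 and 1.94 (SE 0.36, adjusted p = 0.00269) in MPP4. Mrpl36 had 97.9 and 106 CPM in MPP1, 376 and 316 in MPP2 and 308 and 406 in MPP4, and was higher by 1.76 (SE 0.30, adjusted p = 0.00838) and 1.81 (SE 0.30, adjusted p = 0.00144). For both genes every MPP2 and MPP4 library was above both MPP1 libraries, while MPP2 and MPP4 overlapped. Mrpl44 had 44.3 and 109 CPM in MPP1, 476 and 164 in MPP2 and 286 and 359 in MPP4, with differences of 2.06 (SE 0.47, adjusted p = 0.0175) and 2.08 (SE 0.47, adjusted p = 0.00856). Mrps18c, a low member with 23.2% of its exon bases shared with Gm43511, had 5.4 and 7.31 CPM in MPP1 and 54.7 and 59.2 in MPP2, a difference of 3.16 (SE 0.85, adjusted p = 0.0381). The others among the 10 largest were Mrpl14 (2.15), Mrps17 (1.96), Mrpl51 (1.88), Mrpl41 (1.84), Mrpl20 (1.78) and Mrps16 (1.73) in MPP2. In MPP4 they were Mrpl14 (1.82), Mrpl20 (1.76), Mrps17 (1.70), Mrps22 (1.67), Mrps14 (1.65), Mrpl46 (1.64) and Mrpl51 (1.63).

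With 2 libraries a group, the counts within 1013/1013 rested on single libraries. In MPP2 the count was 0 without MPP1 1013/1013 1 or without MPP2 1013/1013 1, and 4 without MPP1 1013/1013 2. In MPP4 it was 4, 9 and 10 without MPP1 1013/1013 1, MPP1 1013/1013 2 and MPP4 1013/1013 2. In MPP3 it was 5 without MPP3 1013/1013 1. A group left with 1 library, as MPP2 and MPP4 also are without the 8 libraries, is assumed to vary like the other groups. The medians over the members in these refits were 0.87 to 1.25 for MPP2, 0.49 to 1.28 for MPP3 and 1.15 to 1.26 for MPP4, and the 0.49 was without MPP3 1013/1013 2. Without the 8 libraries the count was 40 in MPP2 and 7 in MPP4.

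**Figure D4:**
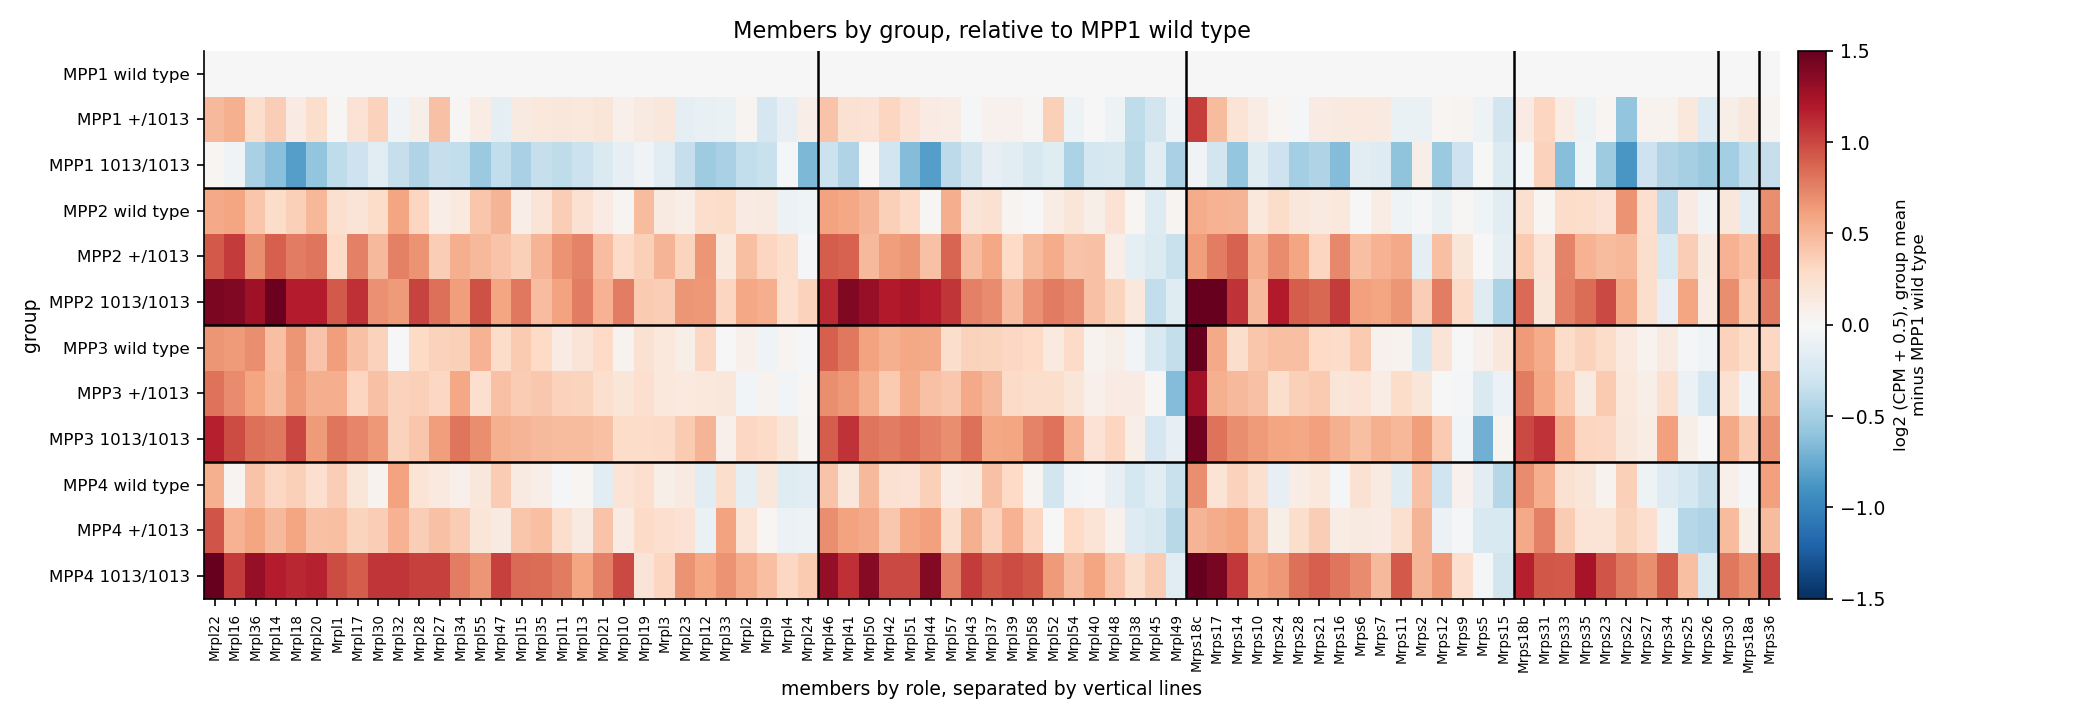
Mean log2 (CPM + 0.5) of each member in each of the 12 groups minus that of MPP1 wild type, with members ordered by role (vertical lines) and groups by subset (horizontal lines). The colour scale ends at 1.5 in either direction. Most members are red in MPP2 and MPP4 1013/1013 and blue in MPP1 1013/1013.

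The second comparison asked how these genes differ between the genotypes. The Y-linked gene Ddx3y was under 1 CPM in 8 of 12 wild type, 3 of 12 +/1013 and 0 of 8 1013/1013 libraries, so this marker of sex was not balanced between the genotypes. With a term for these libraries edgeR called 1 member for 1013/1013 over the mean of subsets and 1 in MPP4, with medians of 0.33 and 0.77, against 0.29 and 0.71 without it. Over the mean of the 4 subsets, edgeR called 0 members in either mutant genotype against wild type (0.209% of all genes were called higher in 1013/1013 and 0.0214% in +/1013). In 1013/1013, 71 of 77 members were positive, the median log2 difference was 0.29 against -0.17 over all genes, and 28 members had an unadjusted p under 0.05, all higher (6.03% of all genes). DESeq2 called 9 members and limma-voom 0. The lowest p belonged to Mrps17 (0.60, SE 0.15, adjusted p = 0.0618), Mrpl22 (0.66, SE 0.18, adjusted p = 0.0772), Mrpl10 of the ribosomal stalk (0.40, SE 0.11, adjusted p = 0.0786), Mrpl16 (0.54, SE 0.16, adjusted p = 0.105) and Mrps35 (0.42, SE 0.13, adjusted p = 0.122). The count rested on single libraries here too, with 8 calls without MPP3 1013/1013 1, 7 without MPP2 1013/1013 2 and 2 without MPP4 1013/1013 1, and the median was 0.18 without MPP3 1013/1013 2. In +/1013 the median was 0.15 with 68 members positive, 4 members had an unadjusted p under 0.05 (2.52% of all genes were higher at that level), and DESeq2 and limma-voom called 0. For 1013/1013 against +/1013 the median was 0.14 (0.04 without MPP3 1013/1013 2 and 0.06 without MPP2 1013/1013 1), 5 members were higher with an unadjusted p below 0.05 (1.92% of all genes). Here edgeR called 0 members, DESeq2 1 and limma-voom 0, and Mrps35 had the lowest p (0.41, SE 0.13, adjusted p = 0.351).

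Within the subsets, the direction of 1013/1013 against wild type was not the same. In MPP4, 76 of 77 members were positive with a median of 0.71 (-0.12 over all genes), and both 1013/1013 libraries were above all 3 wild type libraries for 64 members (15.5% of all genes). No member passed the adjusted threshold in edgeR (0.0696% of all genes were called higher), 42 had an unadjusted p below 0.05 (5.94% of all genes), with DESeq2 calling 18 and limma-voom 2. Mrps17 had 205, 218 and 212 CPM in wild type, 360, 231 and 239 in +/1013 and 460 and 528 in 1013/1013. Both 1013/1013 libraries were above every other library of MPP4, and the log2 difference from wild type was 1.22 (SE 0.30, adjusted p = 0.0543). Mrps35, a mitochondria-specific protein of the small subunit, had 131, 145 and 138 CPM in wild type and 248 and 332 in 1013/1013, a difference of 1.07 (SE 0.26, adjusted p = 0.0543). The groups did not overlap for these genes. The next were Mrps23 (0.88), Mrpl30 (1.02) and Mrps12 of the decoding centre (0.95), with adjusted p = 0.0892, 0.0905 and 0.0966. Without MPP4 1013/1013 1 the count was 4.

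In MPP2, 69 members were positive with a median of 0.53 (-0.05 over all genes), both 1013/1013 libraries were above wild type for 36 (11.1% of all genes) and 23 had an unadjusted p under 0.05 (6.04% of all genes). EdgeR called 0, DESeq2 8 and limma-voom 0, and the edgeR count was 8 without MPP2 1013/1013 2. The median was 0.25 without MPP2 1013/1013 1, 0.71 without MPP2 1013/1013 2 and 0.83 without the 8 libraries. Leaving out the 8 keeps only MPP2 1013/1013 1 in this group, the library with the highest summed level of all (14921 CPM). The library MPP2 1013/1013 2 was the lower of the pair for Mrps17, which had 815 and 372 CPM in 1013/1013 and 237, 299 and 261 in wild type, a difference of 1.16 (SE 0.30, adjusted p = 0.16). Mrpl10 (0.77), Mrpl44 (1.35), Mrps23 (0.82) and Mrps18c (2.36) followed, with adjusted p from 0.183 to 0.195. In MPP3 the median was 0.26 with 72 members positive, but it was -0.14 without MPP3 1013/1013 2 and 0.60 without MPP3 1013/1013 1. There 2 were higher at an unadjusted p under 0.05 (2.51% of all genes), the libraries separated upward for 2 (8.24% of all genes), and all 3 tools called 0. Mrps2 had the lowest p there (0.86, SE 0.34, adjusted p = 0.973), and Mrps5, which did not follow the other members, had a negative value (-0.74).

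In MPP1 the members lay the other way. There 73 of 77 were negative with a median of -0.36 (0.00 over all genes, and -0.23 over the members without MPP1 wild type 1), and both 1013/1013 libraries were below all 3 wild type libraries for 41 members (9.53% of all genes). All 3 tools called 0 members (edgeR called 0.00535% of all genes higher), and 3 had an unadjusted p under 0.05 (1.15% of all genes). Mrps22 had the lowest p (-0.99, SE 0.35, adjusted p = 1), with 32.1 and 22.1 CPM in 1013/1013. Its difference depends on the wild type library at 86.3 CPM, since the other wild type libraries had 32.9 and 42.3. Mrpl18 had 213, 144 and 155 CPM in wild type and 79.7 and 113 in 1013/1013, a difference of -0.82 (SE 0.32, adjusted p = 1). Mrps23 (-0.53), Mrps12 (-0.58) and Mrps25 (-0.50) followed. There were 22 members for which every 1013/1013 library was below wild type in MPP1 and above it in MPP2 (2.08% of all genes), and 36 for which this held for MPP1 and MPP4 (3.18% of all genes).

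The difference between these effects was tested gene by gene. The effect of 1013/1013 in MPP4 minus its mean in MPP1 to MPP3 had a median of 0.58 over the members (-0.17 over all genes). EdgeR called 0 members, limma-voom 0 and DESeq2 1, and 15 were higher at an unadjusted p under 0.05 (2.13% of all genes), with Mrps35 at the lowest p (0.87, SE 0.31, adjusted p = 0.402). The effect in MPP1 minus its mean in MPP2 to MPP4, a contrast chosen after the other values were seen, had a median of -0.86 (0.24 over all genes). EdgeR called 0 members, limma-voom 0 and DESeq2 5, and 45 had an unadjusted p under 0.05, all lower (4.72% of all genes). The lowest p was that of Mrpl18 (-1.49, SE 0.37, adjusted p = 0.443). In +/1013 against wild type, edgeR, DESeq2 and limma-voom called 0 members in each subset, with 2, 5, 0 and 0 at an unadjusted p under 0.05 (2.4% of all genes were higher in MPP2) and medians of 0.13, 0.29, 0.01 and 0.18 in MPP1 to MPP4. Single libraries moved these medians to between -0.15 and 0.25 in MPP1, 0.10 and 0.38 in MPP2, -0.07 and 0.08 in MPP3 and 0.05 and 0.29 in MPP4. The lowest values were without MPP1 +/1013 1, MPP2 +/1013 3, MPP3 +/1013 3 and MPP4 +/1013 1, so the median turned negative in MPP1 without 1 library. In MPP3 it was also negative without MPP3 wild type 3 (-0.02), without MPP3 +/1013 1 (-0.03) and with RLE scaling (-0.01). Every +/1013 library was above wild type for 10 members in MPP2 (2.7% of all genes) and 7 in MPP4 (3.16%). The +/1013 effect in MPP4 minus the others had a median of 0.04 with 0 members at an unadjusted p under 0.05. Mrps22 (-0.72) and Mrps18c (1.55) in MPP1, Mrpl13 (0.53) in MPP2, Mrpl49 (-0.34) in MPP3 and Mrpl21 (0.60) in MPP4 had the lowest p, and their adjusted p ran from 0.811 to 1.

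Other genes of mitochondrial translation were described by lists. Assembly factors of the ribosome were the list with most calls, with 5 of 27 tested genes higher in MPP2, 3 in MPP3 and 7 in MPP4 against MPP1 as the mean over genotypes. Fastkd2, which binds the RNA of the large subunit, was higher by 0.91, 0.86 and 0.88 (adjusted p = 0.00555, 0.0111 and 0.00216), and Malsu1, which keeps the subunits apart during assembly, by 0.87, 0.96 and 1.08 (adjusted p = 0.0426, 0.0424 and 0.00689). Ngrn was also higher in all 3, and the methyltransferase Mrm2 in MPP2 and MPP4. Of 5 ribosomal proteins under other names, Chchd1 alone passed the threshold, in MPP2 (0.88, SE 0.25, adjusted p = 0.0337). Of 17 mitochondrial aminoacyl-tRNA synthetases, 3 were higher in MPP2 (Cars2, Tars2 and Fars2), 0 in MPP3 and 3 in MPP4 (Fars2, Hars2 and Mars2). In MPP3 the synthetases had a median of 0.16, and this list was tested with edgeR alone.

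Translation factors had medians of 0.01, -0.01 and -0.24 over 14 tested genes. In MPP4 the formyltransferase Mtfmt was higher by 1.16 (SE 0.29, adjusted p = 0.00883), and the initiation factor Mtif2 was lower by -1.37 (SE 0.43, adjusted p = 0.0364). Within 1013/1013, Mtif2 had 28.2 ± 7.98 CPM in MPP1 and 3.92 ± 0.653 in MPP4, and Lrpprc, which stabilises mitochondrial messages, had 59.1 ± 35.9 and 1.31 ± 1.75 (SD, n = 2 each, edgeR adjusted p = 0.0473 and 0.033). Among regulators of the mitochondrial genome, Tfam was higher by 0.45, 0.57 and 0.55 in MPP2, MPP3 and MPP4, and the elongation factor Tefm by 1.19 in MPP2 and 1.34 in MPP4. Gabpb1, a subunit of GABP, whose ETS letters are shown above, was higher by 0.49 (SE 0.12, adjusted p = 0.0256) in MPP3 and 0.74 (SE 0.12, adjusted p = 0.000208) in MPP4. Yy1 was lower by -1.67 (SE 0.53, adjusted p = 0.0357) in MPP4 against MPP1 as the mean over genotypes. Within 1013/1013 alone that difference was -4.36 (SE 1.16, adjusted p = 0.0209), so the mean leans on this genotype. Between the genotypes of MPP4, Yy1 had 11.8 ± 2.17 CPM in wild type (n = 3) and 0.857 ± 0.201 in 1013/1013 (n = 2), a level near the floor.

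Of the 10 mitochondrially encoded messages that were tested, mt-Co1 of cytochrome oxidase was higher in MPP3 (0.99, SE 0.25, adjusted p = 0.033) and MPP4 (0.84, SE 0.25, adjusted p = 0.0276), and mt-Nd1 in MPP4 (1.26, SE 0.43, adjusted p = 0.0498). Over the mean of subsets, mt-Co1 was also higher in 1013/1013 than in wild type (1.16, SE 0.22, adjusted p = 0.0129), and so was the assembly factor Mterf3 (0.83, SE 0.18, adjusted p = 0.0312). In MPP1, mt-Co1 had 2860 ± 751 CPM in wild type (n = 3) and 6180 ± 552 in 1013/1013 (n = 2), while the summed level of the members was lower there. Genes for cytosolic ribosomal proteins were higher alongside the members, with medians of 0.54, 0.61 and 0.53 over 76 genes and 14, 4 and 11 calls in MPP2, MPP3 and MPP4 against MPP1. For 1013/1013 against wild type in MPP4 their median was 0.86, against 0.71 for the members.

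Several measures of the libraries moved with the summed level of the members, and their part in the differences was not tested. After thinning every library to 13016038 counts, the number of genes with at least 5 counts had a correlation of -0.83 with that sum over the 32 libraries, and of -0.55 in wild type (n = 12), -0.93 in +/1013 (n = 12) and -0.88 in 1013/1013 (n = 8). The points share the libraries and the scaling. In MPP4 that number was 13195 to 13482 in wild type and 10963 to 12640 in 1013/1013, and in MPP1 it was 13081 to 14360 and 13766 to 14020. Libraries with higher sums had fewer genes detected. The share of counts in cytosolic ribosomal protein genes had a correlation of 0.86 with the sum, the share in mitochondrially encoded proteins 0.56 and the library total 0.09.

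**Figure D5:**
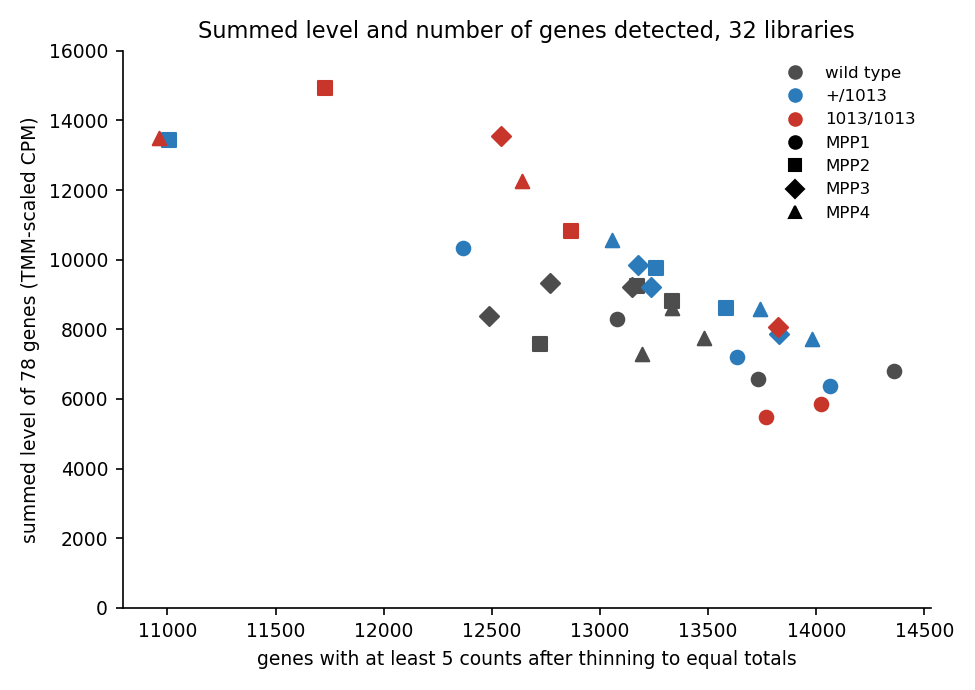
Summed TMM-scaled CPM of the 78 genes against the number of genes with at least 5 counts after thinning to 13016038 counts, for the 32 libraries, with colour for genotype and shape for subset. The sum is higher where fewer genes were detected (correlation -0.83), with MPP4 1013/1013 at 10963 and 12640 genes and MPP1 1013/1013 at 13766 and 14020.

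Differences also followed transcript length, taken as the same deposited median over the transcripts of a gene. For 1013/1013 against wild type in MPP4, genes with a mean of at least 10 CPM had median log2 differences of 0.14 for transcripts under 1000 bases, -0.03 from 1000 to 2000 bases, -0.59 from 2000 to 4000 bases and -1.21 from 4000 bases. The members are short by this measure, with 47 of 74 under 1000 bases. Of all genes of at least 10 CPM, 3437 were under 1000 bases and 2415 from 1000 to 2000. A further 2070 were from 2000 to 4000 bases and 390 from 4000 bases. The medians of the members were 0.77 under 1000 bases and 0.65 from 1000 bases. For MPP4 against MPP1 as the mean over genotypes, the medians were 0.50 and 0.46 for members, and 0.08 for all genes under 1000 bases and -0.58 for those from 4000 bases. The summed level of 8 markers of T and NK cells was 816 and 1020 CPM in MPP4 1013/1013 and 288 to 431 in wild type. Nearly all of it was Nkg7 (795 to 1010 CPM), and the defining markers Cd3e and Ncr1 were at 0 in both groups. The neutrophil markers stood at 18.1 and 33.8 CPM in MPP4 1013/1013 and at 9.52, 10.5 and 2790 in wild type.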

How the data were processed

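RNA-seq counts per gene of 32 libraries were analysed. The deposited raw count columns were used as the authors made them, and 64 other columns of per-sample values were not used. Per the submitters' processing notes, the processing named STAR, HTSeq and the build mm10. Their versions and the strand setting are not given in the sources used here. Rows were kept with edgeR's filterByExpr (18676 of 30644 genes), scaled by TMM, and fitted over all 12 groups with edgeR 4.0.16 in R 4.3.3 (trended dispersion, quasi-likelihood F-test, 20 residual and 3.24 prior degrees of freedom). P-values were adjusted by Benjamini-Hochberg over all genes tested, with a threshold of 0.05. Each SE was taken as the size of the difference over the root of its F statistic. DESeq2 1.42.0, limma-voom (limma 3.58.1), RLE scaling, no filter, terms for library sets, a replicate block and leaving out libraries were alternatives. The fit was tested on simulated data.

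The members and gene lists were chosen with earlier results of these data known. There were 22 comparisons in the first plan and 7 added after values were seen. Named in each comparison were up to 10 called members in each direction, or the 5 of lowest p where fewer than 5 were called. Level, spread and likeness to other genes were named by the 5 highest or lowest, and pathway lists by up to 4 called genes. Genes named beyond that were chosen after their values were seen. Residuals of same-numbered wild type and +/1013 libraries correlated at 0.218 to 0.298 in MPP2, 0.116 to 0.251 in MPP3, 0.157 to 0.372 in MPP4 and 0.068 to 0.355 in MPP1. For same-numbered wild type libraries of MPP1 and another subset the values were 0.021 to 0.157. Libraries of different numbers were not compared in this way, and the labels do not say what a shared number means. In wild type, Ddx3y was under 1 CPM in replicates 2 and 3 and not in replicate 1, in every subset. Same-numbered libraries of a genotype may thus share donors across subsets. A term for replicate within genotype was not fitted, and the main fit treats all 32 libraries as independent.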

Additional observations from a re-analysis of the deposited data

Results flagged for a closer look

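The summed level of the 78 genes moved in opposite directions in 1013/1013 libraries of different subsets. The sum also had a correlation of -0.83 with the number of genes detected after thinning over the 32 libraries, whose part was not tested. The ratio of the 1013/1013 mean of the sum to the wild type mean was 1.21 in MPP3, where the libraries overlapped. It was 0.785 in MPP1, where every 1013/1013 library was lower, 1.51 in MPP2 and 1.63 in MPP4, where every one was higher. The same opposite order of all libraries was seen for 22 members between MPP1 and MPP2 (2.08% of all genes), and for 36 members between MPP1 and MPP4 (3.18% of all genes). The difference between subsets was not tested for the sums or for these counts, and the gene-by-gene test of the effect in MPP1 against the other subsets called 0 members with edgeR and limma-voom and 5 with DESeq2, with 45 at an unadjusted p under 0.05 (4.72% of all genes).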

How the results depend on the processing

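Members were called higher against MPP1, as the mean over genotypes, in 16 to 50 cases for MPP2, 2 to 29 for MPP3 and 17 to 45 for MPP4 when libraries were left out in turn. The MPP2 count was 21 with a term for the 5 libraries numbered from 46. The MPP3 count was 6 with RLE size factors, 6 with no filter on low counts, 30 with DESeq2, 26 with limma-voom and 5 without the 8 libraries numbered a multiple of 3, and without those the MPP4 count was 16. Against MPP2, DESeq2 called 1 member in MPP3 and 5 in MPP4, limma-voom 2 in MPP4, and leaving out libraries gave 0 to 1 in MPP4. For 1013/1013 against wild type over all subsets the count was 9 with DESeq2, 3 without the 8 libraries, 1 with a term for them, 1 with a term for libraries under 1 CPM of Ddx3y and 0 to 8 on leaving out libraries. Against +/1013 it was 1 with DESeq2 and 0 to 1 on leaving out libraries. In MPP2 it was 8 with DESeq2, 3 without the 8 libraries and 0 to 8 on leaving out libraries. In MPP4 it was 18 with DESeq2, 2 with limma-voom, 3 with the term for the 8 libraries, 1 with the Ddx3y term and 0 to 4 on leaving out libraries. DESeq2 called 1 member for the 1013/1013 effect in MPP4 and 5 for that in MPP1 against the other subsets (0 to 1 on leaving out libraries). Within +/1013, DESeq2 called 1 member in MPP2 and 1 in MPP4 against MPP1. Within 1013/1013, the MPP2 count was 16 with the term for libraries numbered from 46 and 0 to 39 on leaving out libraries. The MPP3 count was 17 with DESeq2, 2 with limma-voom, 1 with the term for the 8 libraries and 0 to 5 on leaving out libraries, and the MPP4 count was 7 without the 8 libraries and 4 to 30 on leaving out libraries. The replicate block joined same-numbered libraries across genotypes as well as subsets. With it the counts were 40, 15 and 28 in MPP2, MPP3 and MPP4, 36, 0 and 44 within 1013/1013, and 0 elsewhere. The summed level in 1013/1013 over wild type was 1.46 in MPP4 as a share of counts without TMM scaling. Without the 8 libraries, which leaves 1 library of MPP4 1013/1013, it was 1.5. Leaving out libraries gave 0.751 to 0.848 in MPP1, 1.27 to 1.75 in MPP2, 0.9 to 1.51 in MPP3 and 1.55 to 1.71 in MPP4, and MPP3 turned to 0.9 without MPP3 1013/1013 2. Of the values of named members under the alternatives, 3125 kept direction and side of the threshold, 187 lost it, 77 gained it and 1 reversed, namely Mrpl52 for 1013/1013 against wild type in MPP3 (0.88, and -0.13 without MPP3 1013/1013 2). Counts of members in this section are given without the share of all genes called in the same fit. The causes were not tested.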
